A study of Mus musculus with 32 samples.

Results

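The nuclear genes of respiratory complexes III, IV and V were followed in the frontal cortex of mice carrying the gut microbiota of 3 primate donor species. The members were every row of the count table whose gene symbol starts with Uqcr (complex III), with Cox4 to Cox8 (complex IV) or with Atp5 (complex V), plus Cyc1 of complex III, without rows named as pseudogenes by the ending -ps. This gave 46 of 23958 rows, with 9 in complex III, 19 in complex IV and 18 in complex V. After the filter on low counts 39 members remained for testing, 9, 13 and 17 in the same order. The 7 untested rows were Cox4i2, Cox6b2, Cox6c2, Cox7b2, Cox8b, Cox8c and a second row named Atp5o.

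Complexes III and IV of the inner mitochondrial membrane pass electrons from ubiquinol through cytochrome c to oxygen and pump protons, and complex V, the ATP synthase, uses the returning protons to make ATP. Most of their subunits are encoded in the nucleus, translated in the cytosol and imported, and a few core subunits of complexes III, IV and V come from mitochondrial DNA. Neurons depend on this chain for the ATP that restores ion gradients after firing. Several small subunits of complex IV exist as paired genes, of which the liver-type or general form dominates in brain, and subunit c of the ATP synthase rotor is made from 3 genes that encode the same mature protein.

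Bulk RNA was measured in the prelimbic and infralimbic frontal cortex of 32 mice with TagSeq, which counts short tags near the 3′ end of polyadenylated transcripts. All groups were inoculated: 12 mice with microbiota of humans (Homo sapiens; batch A with 4 mice and batch B with 8), 8 with that of squirrel monkeys (Saimiri boliviensis; batches C and D with 4 each) and 12 with that of macaques (Macaca mulatta; batch E with 5 and batch F with 7). No uninoculated group was analysed here, and strain, sex, age and the number of donors are not given in the labels used here. Each batch held a single donor species, and so did each plate column, so donor species, batch and plate column cannot be told apart.

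Libraries held 1035036 to 2089308 counts per mouse (median 1534710.5), with human-donor mice reaching the highest totals. Members took 1.26% to 1.73% of a mouse's counts. Neuron markers were abundant in every mouse (6 markers summed to 3401 to 4850 CPM, which puts libraries on the same total after TMM scaling), while summed markers of myelinating oligodendrocytes ranged from 651 to 10330 CPM. Of the 6 neuron markers, Slc17a7 was higher in human-donor than in macaque-donor mice (log2 0.255 ± 0.069, SE; edgeR adjusted p = 0.0163). Syt1 was lower (-0.175 ± 0.055; edgeR adjusted p = 0.0418). The part of neuron composition in the results below was not tested. The 8 myelin markers had a median log2 difference of 1.26 between human-donor and macaque-donor mice, with 3 of 8 past the threshold, and of 1.03 between squirrel-monkey-donor and macaque-donor mice, with 0 of 8. The part of these differences in the results below is given through a fit with the myelin level as a covariate where it changes a call. In bulk tissue, fewer cells of a type and less RNA per cell cannot be told apart.

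Between human-donor and macaque-donor mice, 6 of 39 tested members were higher and 0 were lower. The higher ones were Uqcrq of complex III, Cox6c of complex IV, and Atp5g1, Atp5g2, Atp5l and Atp5o of complex V. The test was edgeR's quasi-likelihood test with Benjamini-Hochberg adjustment over all 12651 genes, and a call means an adjusted p under 0.05. Among all genes tested, 4.47% were called higher and 3.54% lower, beside 15.4% of members called higher. The medians stayed near 0: the median log2 fold change was 0.02 in complex III, -0.003 in complex IV and 0.05 in complex V, against -0.001 over all genes. Of the 33 members not called, 28 had a 95% interval (1.96 SE either way) that lay inside a 1.25-fold change in either direction. The 5 with wider intervals were Uqcrb, Uqcrc2, Cox6a2, Cox7a1 and Atp5s. Intervals between donors treat the mice as independent, although batches are nested in donor species. Uqcr11, with an interval of -0.244 to 0.062, was at -0.314 and called lower without batch B.

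**Figure D1:**
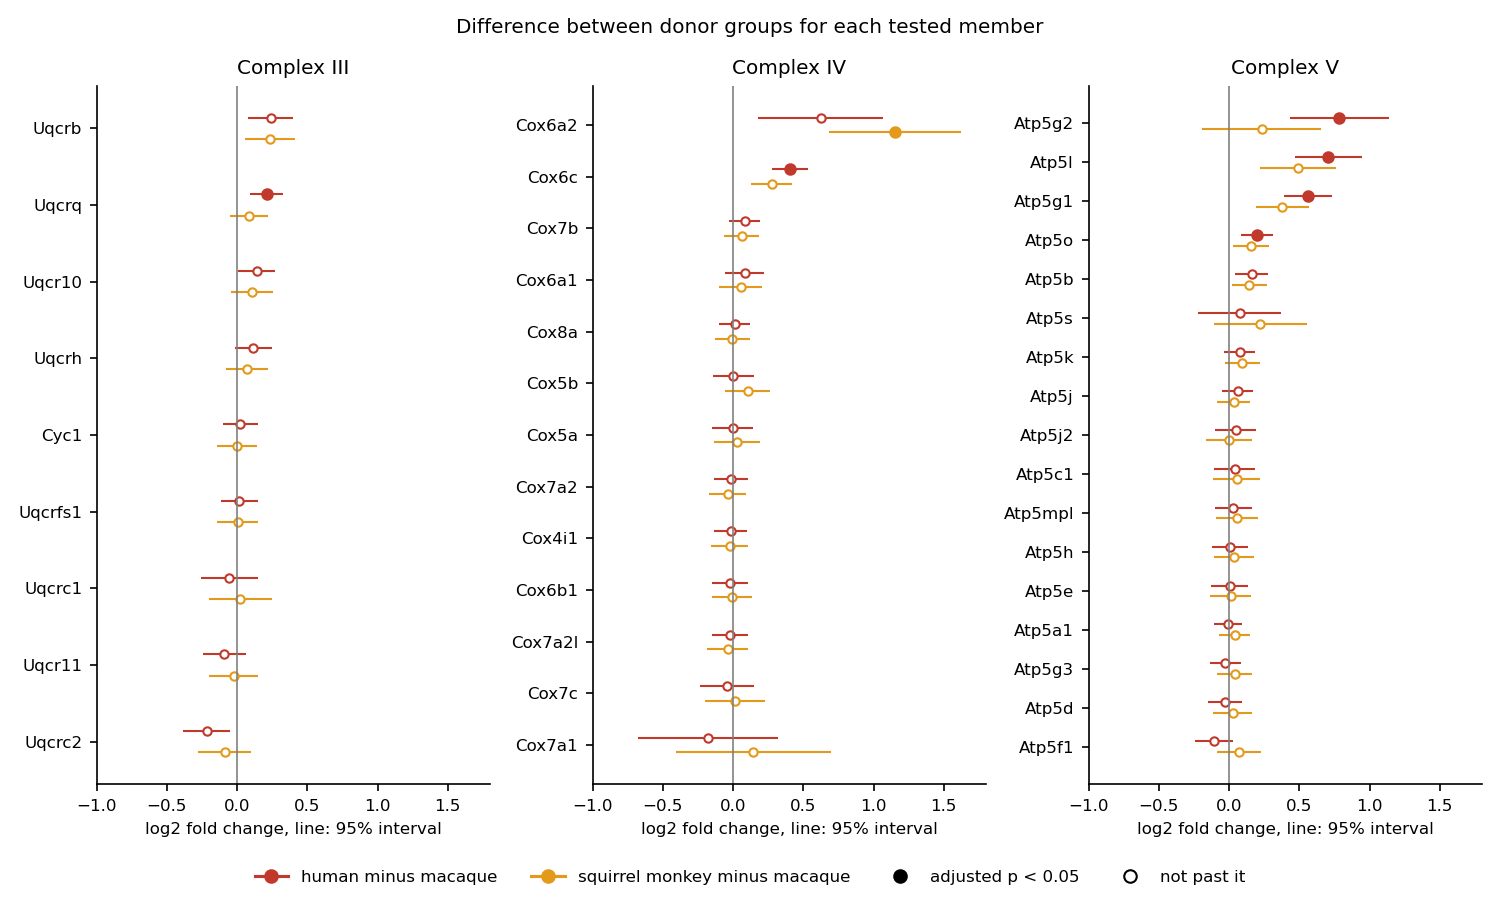
Log2 fold change of each of the 39 tested members, by complex, for human-donor minus macaque-donor mice (red) and squirrel-monkey-donor minus macaque-donor mice (orange), with 95% intervals as lines and filled points for adjusted p under 0.05. Most intervals lie close to 0, and the filled points are the 6 members called in the first comparison and Cox6a2 in the second; both comparisons use the same 12 macaque-donor mice.

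In complex III, Uqcrq (ENSMUSG00000044894, chromosome 11), a small subunit near the ubiquinone site, was the only called member of 9. Its level ran from 345 to 469 CPM in human-donor mice (median 399), from 317 to 412 CPM in squirrel-monkey-donor mice (median 380) and from 301 to 427 CPM in macaque-donor mice (median 339). The ranges overlapped, although all 12 human-donor mice stood above the macaque-donor median. This was a log2 fold change of 0.21 ± 0.06 (SE; edgeR adjusted p = 0.0273). The call was lost with the myelin level as a covariate, with no low-count filter, with batches as levels of the fit, with counts summed per batch, and without batch B, E or F or macaque replicate 1 (adjusted p up to 0.456).

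The redox-active subunits of complex III showed no called difference. Uqcrfs1, the Rieske iron-sulfur protein, averaged 189 ± 19.2 CPM in human-donor (SD, n = 12), 187 ± 21.9 CPM in squirrel-monkey-donor (n = 8) and 187 ± 22.8 CPM in macaque-donor mice (n = 12). Cyc1, cytochrome c1, averaged 256 ± 36.2, 252 ± 14.2 and 252 ± 24.1 CPM in the same order. Group means of these electron carriers thus lay well within the spread between mice, which does not show that donors were alike. For human-donor against macaque-donor mice, the log2 interval was -0.113 to 0.145 for Uqcrfs1 and -0.103 to 0.147 for Cyc1. The uncalled members of complex III reached from Uqcrc2, a core protein, at a log2 fold change of -0.22 ± 0.09 (SE) to Uqcrb, a ubiquinone-binding subunit, at 0.24 ± 0.08 in human-donor against macaque-donor mice. Neither passed the threshold (edgeR adjusted p = 0.108 for Uqcrc2 and 0.0639 for Uqcrb). Uqcrb was called higher in 7 of the alternatives and left-out mice (0.24 to 0.30), among them library totals alone, a minimum count of 30, only the 2 groups compared and without batch A. Uqcrc2 was called lower in 2, without batch B and without human replicate 11 (-0.39 to -0.26).

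In complex IV, Cox6c (ENSMUSG00000014313, chromosome 15), a small nuclear subunit without a catalytic role, was the only called member of 13 in the human comparison. Human-donor mice had 341 to 424 CPM (median 386), squirrel-monkey-donor mice 277 to 423 CPM (median 363) and macaque-donor mice 249.6 to 349.8 CPM (median 280). Of the 12 human-donor mice, 10 exceeded every macaque-donor mouse. The log2 fold change was 0.40 ± 0.07 (SE; edgeR adjusted p = 6.3e-05), and the call held in all 15 alternatives and without each of the 32 mice in turn.

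For the other general subunits of complex IV, donor means lay within the spread between mice. Cox4i1, the regulatory subunit that binds ATP, averaged 1026 ± 122 CPM in human-donor, 1021 ± 66.8 CPM in squirrel-monkey-donor and 1039 ± 112 CPM in macaque-donor mice (SD, n = 12, 8 and 12). Cox5a averaged 341 ± 51.7, 348.5 ± 25.9 and 342 ± 49.3 CPM in that order. The differences between donor groups were smaller than 1 SD between mice for both, which does not show that donors were alike. For human-donor against macaque-donor mice, the log2 interval was -0.136 to 0.1 for Cox4i1 and -0.15 to 0.144 for Cox5a.

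Cox6a2 (ENSMUSG00000030785, chromosome 7), the heart and muscle form of subunit 6a, which in mouse cortex is known from parvalbumin interneurons, was the only member called between squirrel-monkey-donor and macaque-donor mice. In counts it was low, with 6 to 34 per human-donor mouse, 10 to 25 per squirrel-monkey-donor mouse and 3 to 14 per macaque-donor mouse. The scaled level ran from 8.51 to 16.9 CPM with squirrel monkey donors (median 10.5), from 2.57 to 11.4 CPM with macaque donors (median 5.15) and from 4.25 to 17.2 CPM with human donors (median 7.62). All but 1 of the 12 macaque-donor mice stood below the lowest squirrel-monkey-donor mouse.

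The log2 fold change of Cox6a2 was 1.15 ± 0.24 (SE; edgeR adjusted p = 0.0132). Against macaque-donor mice, the human-donor difference of 0.62 ± 0.23 did not pass (adjusted p = 0.0794), nor did human-donor against squirrel-monkey-donor mice at -0.53 ± 0.22 (adjusted p = 0.4). The squirrel monkey call was lost with the myelin level as a covariate and without batch C, D, E or F (adjusted p up to 0.197). Pvalb, the parvalbumin gene, looked up after these values were seen, was not called in the squirrel monkey comparison (-0.09 ± 0.21 on the log2 scale, adjusted p = 0.904). Itgad overlaps Cox6a2 on the opposite strand, and reads of the pair cannot be told apart without strand.

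For the paired forms of complex IV subunits, shares of tags were taken; tags are not divided by transcript length, so shares are read across mice only. Cox6a1, the general form of subunit 6a, averaged 584 ± 75.8, 572 ± 62.6 and 551.5 ± 69.2 CPM with human, squirrel monkey and macaque donors (SD, n = 12, 8 and 12). Cox6a2 took 0.826% to 3.17% of the subunit 6a counts with human donors, 1.498% to 3.005% with squirrel monkey donors and 0.433% to 1.750% with macaque donors. The last pair of ranges overlapped only at their edges, above 1.498%.

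Cox4i2, the lung-type form inducible by low oxygen, held 0.120% to 0.740% of subunit 4 counts over all mice, and Cox7a1, the heart and muscle form, held 0.219% to 1.65% of the Cox7a1 and Cox7a2 counts. Cox7a1 was not called (human against macaque -0.18 ± 0.26, log2 with SE, edgeR adjusted p = 0.729), and at 2.66 to 7.54 CPM against 1.25 to 11.3 CPM its groups overlapped widely. Cox7a2 averaged 611 ± 67.7, 599 ± 51.8 and 616 ± 64.8 CPM, and Cox7a2l, a factor of supercomplex assembly, 234 ± 28.6, 231 ± 21.2 and 238 ± 27.8 CPM, in the order human, squirrel monkey and macaque. Each of these sets differed between donors by less than 1 SD between mice, which does not show that donors were alike. For human-donor against macaque-donor mice, the log2 interval was -0.133 to 0.107 for Cox7a2 and -0.15 to 0.104 for Cox7a2l. That of Cox7a1 was wider, at -0.68 to 0.32.

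The general forms of subunits 6b and 8 also differed between donors by less than 1 SD between mice. Cox6b1 averaged 566 ± 62.4, 571 ± 48.4 and 574 ± 75.0 CPM, and Cox8a 1143 ± 135, 1131 ± 90.8 and 1135 ± 91.4 CPM, in the same donor order. The untested Cox6b2, a testis form, had 91 counts in all human-donor mice together, 41 in squirrel-monkey-donor and 42 in macaque-donor mice. Cox8b, the heart and muscle form of rodents, had 11, 7 and 1 counts, and Cox8c, a testis form, had 0 in every mouse. The rest of the untested rows had 183 counts (Cox4i2), 74 (Cox7b2), 1 (Cox6c2, annotated as a processed pseudogene) and 1 (the second Atp5o row) over all 32 mice. These counts are too low for a comparison between donors.

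Complex V held 4 of the 6 called members. Atp5g1 (ENSMUSG00000006057, chromosome 11), a gene for the rotor subunit c, had 164.0 to 279.7 CPM in human-donor mice (median 194), 139.5 to 230.4 CPM in squirrel-monkey-donor mice (median 164) and 111.0 to 163.9 CPM in macaque-donor mice (median 143). The human-donor and macaque-donor ranges did not overlap, though their nearest mice were nearly level. The log2 fold change was 0.56 ± 0.09 (SE; edgeR adjusted p = 2.56e-05), and it passed in all 15 alternatives and without each of the 32 mice.

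Atp5l (ENSMUSG00000038717, chromosome 9), which encodes subunit g of the membrane part where synthase dimers meet, had 46.5 to 117.6 CPM with human donors (median 101), 66.8 to 110.8 CPM with squirrel monkey donors (median 73.9) and 40.4 to 74.2 CPM with macaque donors (median 56.5). Of the human-donor mice, 9 of 12 exceeded every macaque-donor mouse, and the lowest lay under the macaque-donor median. Human-donor mice differed from macaque-donor mice by a log2 fold change of 0.71 ± 0.12 (SE; edgeR adjusted p = 0.000134), passing in all 15 alternatives and without each of the 32 mice.

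Atp5g2 (ENSMUSG00000062683, chromosome 15), another subunit c gene, had 11 to 42 counts per human-donor mouse, 8 to 24 per squirrel-monkey-donor mouse and 7 to 20 per macaque-donor mouse. In scaled levels this was 8.39 to 20.8 CPM (median 15.7), 6.75 to 19.6 CPM (median 8.24) and 5.19 to 12.5 CPM (median 9.11). The groups overlapped, with 7 of 12 human-donor mice above every macaque-donor mouse. The log2 fold change between human-donor and macaque-donor mice was 0.78 ± 0.18 (SE; edgeR adjusted p = 0.0042), lost with the library total as a covariate, with counts summed per batch and without batch F (adjusted p up to 0.161).

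Atp5o (ENSMUSG00000022956, chromosome 16), the peripheral stalk subunit that confers oligomycin sensitivity, had 292 to 378 CPM with human donors (median 324), 281.5 to 379 CPM with squirrel monkey donors (median 306) and 230.0 to 338 CPM with macaque donors (median 286). All 12 human-donor mice stood above the macaque-donor median, but the ranges overlapped. The difference was 0.20 ± 0.06 on the log2 scale (SE; edgeR adjusted p = 0.0252). The call was lost with the library total or the myelin level as a covariate, with counts summed per batch, without batch A, B, E or F, and without human replicate 7 or macaque replicate 1 (adjusted p up to 0.232).

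**Figure D2:**
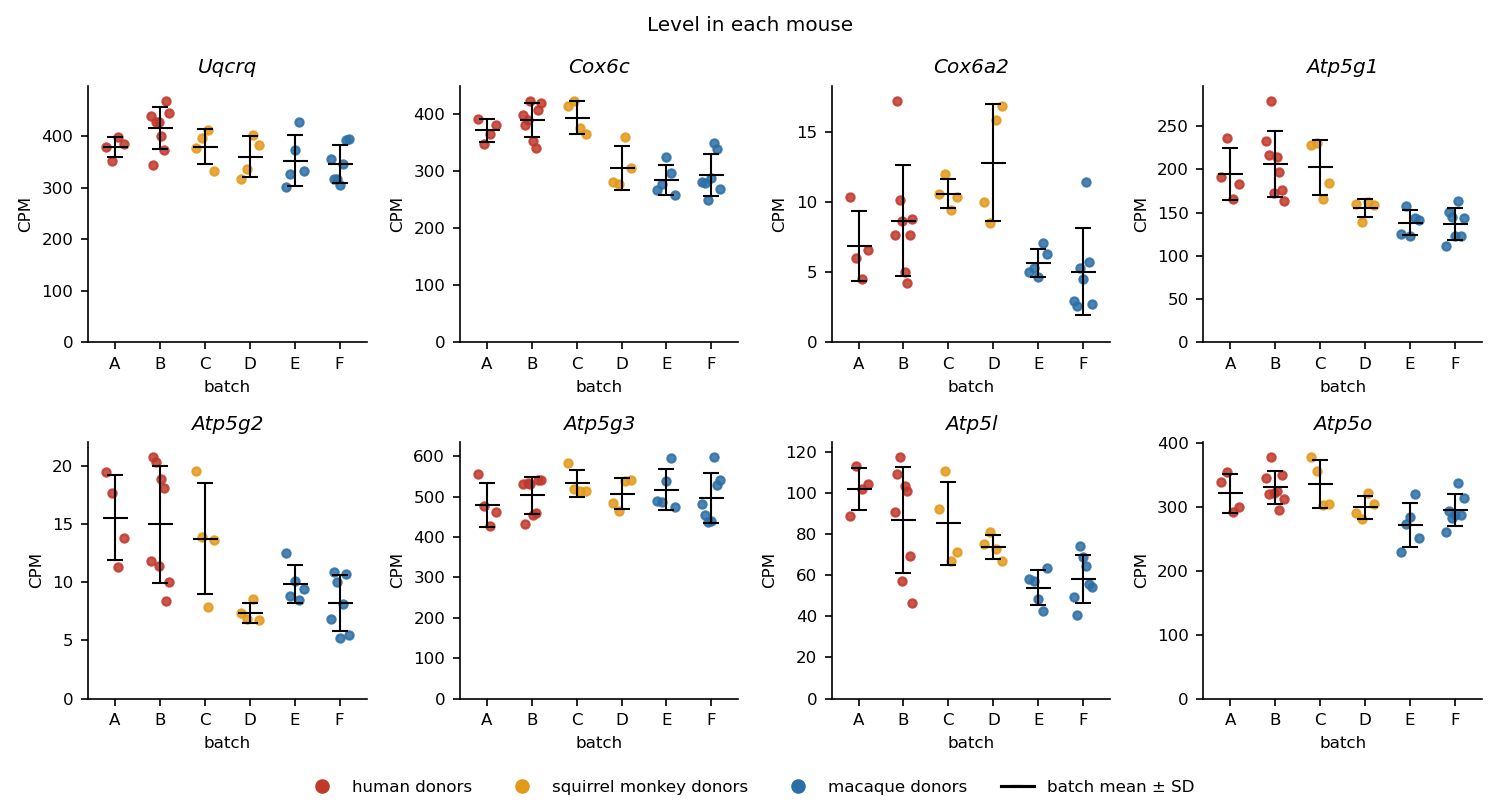
Level in CPM in each of the 32 mice for the 7 members called in a donor comparison and for Atp5g3, by batch and coloured by donor species, with batch means and SD in black. Atp5g1 and Cox6c in batch C lie near batches A and B and in batch D near batches E and F, while the ranges of Atp5g3 overlap across all 6 batches.

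The catalytic head of the ATP synthase showed no called difference in the main fit. Atp5a1, the alpha subunit, averaged 739.5 ± 56.3 CPM in human-donor, 764 ± 42.4 CPM in squirrel-monkey-donor and 744 ± 72.8 CPM in macaque-donor mice (SD, n = 12, 8 and 12). Atp5b, the catalytic beta subunit, averaged 1362 ± 133, 1347 ± 101 and 1220 ± 132 CPM, and its human-donor difference of 0.16 ± 0.06 (log2 with SE) was the highest among the uncalled members of complex V (edgeR adjusted p = 0.0788). The lowest was Atp5f1, subunit b of the peripheral stalk, at -0.11 with averages of 240.3 ± 28.5, 271 ± 22.1 and 259 ± 38.0 CPM. Atp5f1 and Atp5o, both of the stalk, thus had differences of opposite sign, of which the positive one was called. In human-donor against macaque-donor mice, Atp5b was called higher in 6 of the alternatives and left-out mice (0.17 to 0.21). Among them were library totals alone, a minimum count of 30 and the fit without batch A.

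Within the subunit c set, the 3 genes did not differ between donors in the same way. Atp5g3 averaged 495 ± 47.7, 519.6 ± 36.3 and 505 ± 55.6 CPM with human, squirrel monkey and macaque donors, and its human-donor difference was -0.03 ± 0.06 (log2 with SE, edgeR adjusted p = 0.818; 95% interval -0.14 to 0.08). Of the tags from the 3 genes, Atp5g1 made 23.0% to 33.6% with human donors (mean 28.4 ± 3.67, SD), 22.6% to 30.2% with squirrel monkey donors (25.1 ± 2.67) and 18.3% to 24.5% with macaque donors (21.2 ± 2.34). Atp5g2 made 2.13 ± 0.616%, 1.45 ± 0.504% and 1.37 ± 0.369% in that order. Human-donor and macaque-donor shares of Atp5g1 overlapped only between 23.0% and 24.5%.

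**Figure D3:**
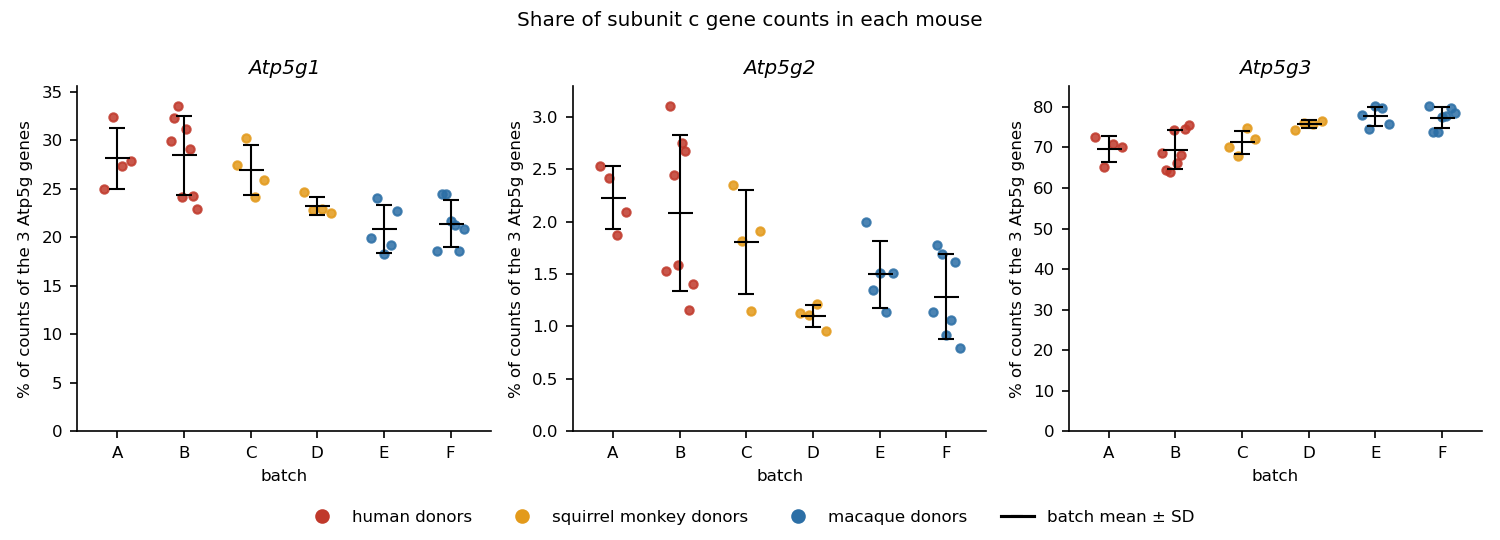
Share of the counts of the 3 subunit c genes that came from Atp5g1, Atp5g2 and Atp5g3 in each mouse, by batch, with batch means and SD in black. The mean share of Atp5g1 is 28.2% and 28.4% in the human-donor batches A and B, 26.9% and 23.2% in the squirrel-monkey-donor batches C and D, and 20.9% and 21.4% in the macaque-donor batches E and F.

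The sequences upstream of these 3 genes, which encode 1 protein but had different donor values, and of Atp5l are shown from RefSeq promoter windows of the mouse build GRCm38.p6, another build than that of the counts. Each run is the 250 bases before the annotated start, 5′ to 3′ on the gene's strand, which is minus for all 4. Capitals mark matches, on either strand, to letters searched for NRF-1, GABP and YY1, known activators of respiratory genes, for the general factor Sp1 and for the TATA box. The capitals at the end of the Atp5g2 run belong to a match that continues past the start. The windows are chr11:96075632-96075881 for Atp5g1, chr15:102671048-102671297 for Atp5g2, chr2:73911327-73911576 for Atp5g3 and chr9:44920743-44920992 for Atp5l.
Atp5g1: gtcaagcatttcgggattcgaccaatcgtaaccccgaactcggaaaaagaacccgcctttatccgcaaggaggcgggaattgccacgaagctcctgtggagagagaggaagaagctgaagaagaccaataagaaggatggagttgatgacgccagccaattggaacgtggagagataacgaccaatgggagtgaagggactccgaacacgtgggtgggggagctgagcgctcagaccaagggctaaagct
Atp5g2: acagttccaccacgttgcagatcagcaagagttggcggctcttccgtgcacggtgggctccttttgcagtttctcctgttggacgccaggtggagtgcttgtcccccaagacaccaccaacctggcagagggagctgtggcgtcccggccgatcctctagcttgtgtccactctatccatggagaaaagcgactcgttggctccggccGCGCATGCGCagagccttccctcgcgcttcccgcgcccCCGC
Atp5g3: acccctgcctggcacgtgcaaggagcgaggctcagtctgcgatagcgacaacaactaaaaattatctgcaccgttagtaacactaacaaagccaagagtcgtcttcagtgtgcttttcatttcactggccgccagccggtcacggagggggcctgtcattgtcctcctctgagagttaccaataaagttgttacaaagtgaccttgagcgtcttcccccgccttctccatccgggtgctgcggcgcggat
Atp5l: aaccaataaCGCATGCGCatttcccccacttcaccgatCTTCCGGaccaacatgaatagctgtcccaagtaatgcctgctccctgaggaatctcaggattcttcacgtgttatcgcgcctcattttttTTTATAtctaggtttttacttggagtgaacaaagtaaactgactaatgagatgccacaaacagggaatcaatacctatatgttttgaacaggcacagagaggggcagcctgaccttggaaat

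In these windows Atp5g2 held overlapping NRF-1 matches 42 bases before the start on both strands and an Sp1 match at it. Atp5l held NRF-1, GABP and TATA box matches before the start and another GABP match after it. Atp5g3 held an NRF-1 match just after the start, beyond the printed run, and Atp5g1 held none of the letters searched. Windows of 250 bases before to 50 after the start were found for 31 of 46 members, 34 windows in all. The NRF-1 letters, GCGCANGCG, were in 29.4% of member windows and 6.25% of all 32851 windows. Those of GABP, CCGGAAG, were in 29.4% and 8.86%. For YY1, searched as AANATGGCG, the shares were 8.82% and 2.38%. The Sp1 letters GGGCGG were in 29.4% of member windows and 35.7% of all. The TATA box, TATAAA, was in 8.82% and 13.6%. Both strands were read, so that overlapping matches on the 2 strands count as 1 window. A match is a string of letters only, and a window without it says nothing of a factor's binding.

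Reads of several called members could come from copies elsewhere in the genome. In GENCODE M21 transcripts, the last 300 bases had a near-identical copy (95% identity or more over an alignment of 100 bases or longer) for 5 of the 6 members called in the human comparison: 12 copies for Atp5l, 3 for Atp5g1, 2 for Atp5g2, and 1 each for Cox6c and Atp5o. Uqcrq had 0. Among the 33 other tested members, 11 had a copy. Copies with a row of their own held 100 counts over all mice for Atp5l (the member 3755) and 302 for Atp5g1 (8497). They held 5 for Atp5g2 (588), 1 for Cox6c (16503) and 18 for Atp5o (15035). Counts in copy rows do not show how many reads of copies were given to the member. Cox6c is also overlapped by Vps13b on the opposite strand, Atp5l by Gm30934 and Atp5o by D430001F17Rik and Gm15976. Such an overlap was found for 3 of these 6 members and for 10 of the 33 others. How reads of copies and of opposite strands were counted is not given in the sources used here, so the levels of these members are uncertain, and the part of copies in the differences was not tested.

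Against the same macaque-donor mice, the squirrel monkey group had 1 of 39 members called higher and 0 lower, where 0.387% of all genes were higher and 0.253% lower. The median log2 fold change was 0.02 in complex III, 0.03 in complex IV and 0.06 in complex V, against 0.001 over all genes. In complex V, 16 of 17 members had a positive value and none was called, where 50.2% of all genes were positive. Between batches C and D, both of squirrel monkey donors, 16 of 17 members of complex V were positive as well. The members called in the human comparison had values of 0.38 ± 0.10 (Atp5g1, adjusted p = 0.0513), 0.27 ± 0.07 (Cox6c, 0.0639), 0.49 ± 0.14 (Atp5l, 0.0777), 0.23 ± 0.22 (Atp5g2, 0.696), 0.16 ± 0.07 (Atp5o, 0.281) and 0.09 ± 0.07 (Uqcrq, 0.641), as log2 with SE and edgeR adjusted p. Of the 38 uncalled members, 31 had an interval inside a 1.25-fold change either way, and Atp5g1, Atp5g2, Atp5l and Cox6c were among the 7 that did not.

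Between human-donor and squirrel-monkey-donor mice, 0 of 39 members were called, where 0.134% of all genes were (edgeR quasi-likelihood, either direction). At an unadjusted p under 0.05 there were 3 members (7.69%), beside 1267 of all 12651 genes, and DESeq2 and limma voom also called 0. Values ran from -0.53 for Cox6a2 to 0.55 for Atp5g2. Intervals of 32 members lay inside a 1.25-fold change either way, and those of Cox6a2, Cox7a1, Atp5f1, Atp5g1, Atp5g2, Atp5l and Atp5s did not. An F-test for any donor difference called 5 members among 778 genes: Atp5g1, Cox6c, Atp5l, Cox6a2 and Atp5g2.

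Batches of the same donor species were then set against each other in a fit with 6 batch levels. No member was called in any of the 3 contrasts, where 0.0237% of all genes were called between batches A and B, 0.0% between C and D and 0.0% between E and F (edgeR quasi-likelihood, either direction). The 95% intervals of 23, 19 and 8 of the 39 members in that order reached beyond a 1.25-fold change. The lack of calls thus does not show that batches were alike. At an unadjusted p under 0.05 there were 6, 5 and 0 members (15.4%, 12.8% and 0.0% of those tested), beside 11.6%, 6.98% and 3.15% of all genes. Between the human-donor batches, 37 of 39 members were lower in A than in B, with medians of -0.18, -0.16 and -0.12 in complexes III, IV and V, whereas 50.1% of all genes were lower. The lowest values were -0.31 ± 0.11 for Uqcr11 and -0.28 ± 0.11 for Atp5j2 (log2 with SE; edgeR adjusted p = 0.299 and 0.326), apart from the low-count Cox7a1 and Cox6a2. The myelin markers went the other way, with a median of 0.67 higher in A, and the part of tissue composition in the batch difference was not tested.

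Atp5l (0.22 ± 0.17) and Atp5g2 (0.04 ± 0.22) were the 2 members not lower in batch A. Nearest to 0 among the rest were Atp5o (-0.04 ± 0.08), Atp5c1 (-0.05 ± 0.11), Atp5g3 (-0.06 ± 0.09) and Cox6c (-0.07 ± 0.09), and Uqcrq was at -0.14 ± 0.09. Between squirrel-monkey-donor batches, 33 of 39 members were higher in C than in D, with medians of 0.08, 0.07 and 0.09, whereas 50.5% of all genes were higher, with a median of 0.002. The largest value was that of Atp5g2, with 7.88 to 19.6 CPM in batch C and 6.75 to 8.59 CPM in batch D. Its log2 difference of 0.88 ± 0.31 (SE; unadjusted p = 0.00712, edgeR adjusted p = 0.449) was above the same gene's 0.78 between human and macaque donors and 0.23 between squirrel monkey and macaque donors. Cox6c in batch C (365 to 423 CPM) did not overlap batch D (277 to 361 CPM), with a log2 difference of 0.36 ± 0.10 (SE; unadjusted p = 0.000845, edgeR adjusted p = 0.401). Atp5g1 in batch C (166.2 to 230.4 CPM) did not overlap batch D (139.5 to 162.6 CPM) either, at 0.38 ± 0.14 (adjusted p = 0.497). For Cox6c and Atp5g1 as well, the difference between batches of 1 donor species was no smaller than the 0.27 and 0.38 between squirrel monkey and macaque donors. Between the macaque-donor batches the medians were 0.02, -0.02 and -0.003.

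**Figure D4:**
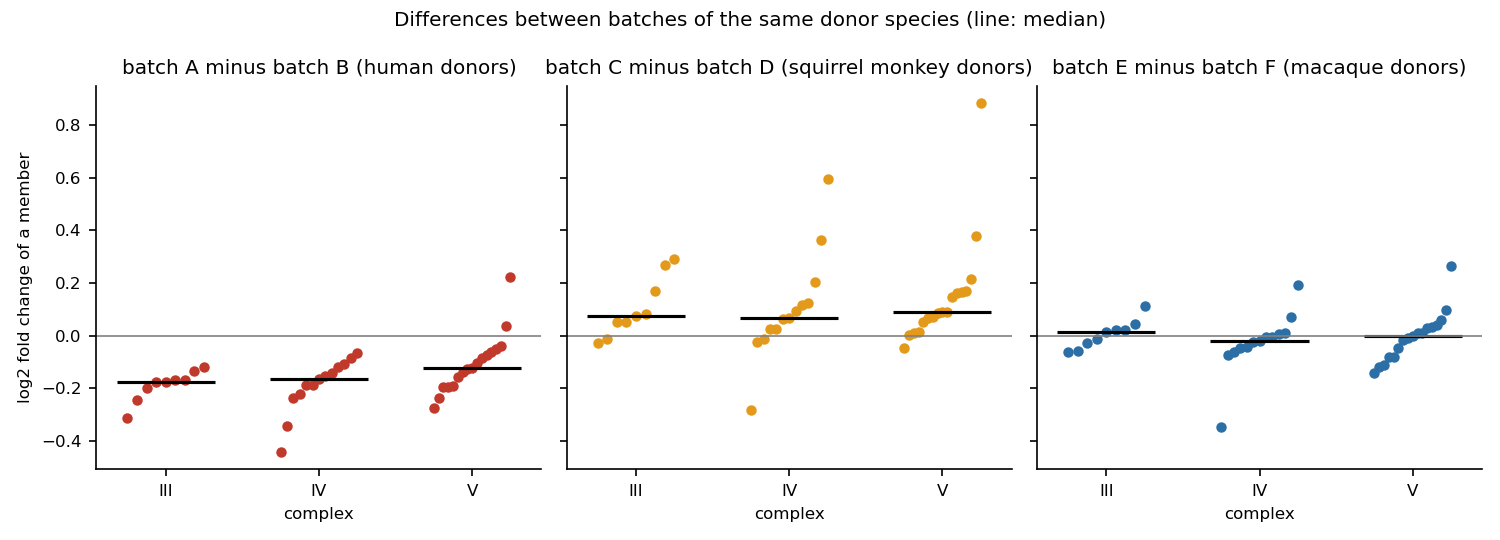
Log2 fold change of each tested member between the 2 batches of the same donor species, by complex, with the median as a black line. Points lie below 0 for 37 of 39 members in batch A minus batch B, above 0 for 33 of 39 in batch C minus batch D, and on both sides in batch E minus batch F.

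Batch means of the donor groups were also compared by order alone. Both human-donor batch means exceeded both macaque-donor batch means for 12 of 39 members, where 23.9% of all genes had that order, and for the squirrel monkey group this held for 13 of 39 members against 20.8% of all genes. The 6 members called in the human comparison were among the 12, but calls and order come from the same mice, so this adds no separate evidence. The reverse order held for 2 of 39 members in the human comparison, beside 3175 of all 12651 genes. For the squirrel monkey group it held for 2 of 39 members, beside 2849 genes.

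The summed level of each complex varied more between mice than between donors, which does not show that donors were alike. Complex III summed to 2452 ± 282, 2426 ± 179 and 2349 ± 268 CPM with human, squirrel monkey and macaque donors (SD, n = 12, 8 and 12), complex IV to 6162 ± 669, 6152 ± 425 and 6036 ± 592 CPM, and complex V to 6797 ± 604, 6832 ± 449.5 and 6466 ± 609 CPM. Over all mice the highest sum was 1.48 times the lowest in complex III, 1.45 times in complex IV and 1.35 times in complex V. Macaque replicate 9 of batch F had the lowest sum in all 3 complexes. The sums rest most on the abundant members. A score with equal weights, the mean centred log2 CPM of tested members, was also computed. Complex V scored 0.060 ± 0.105, 0.037 ± 0.114 and -0.084 ± 0.104 in the same donor order (SD), its called members included. Complex III scored 0.015 ± 0.164, 0.021 ± 0.113 and -0.029 ± 0.174. Complex IV scored 0.012 ± 0.161, 0.069 ± 0.131 and -0.058 ± 0.170. The scores were not tested.

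The 3 sums ordered the mice in a similar way. Of the 8 mice with the lowest sum in complex III, 7 were among the 8 lowest in complex IV and 7 in complex V, and of the 8 highest, 5 and 7 were shared. The ratio of complex V to complex III was correspondingly narrow, from 2.59 to 2.96 over all mice, as was that of complex IV to complex III, from 2.38 to 2.73. These sums share the library total and the TMM factor of each mouse, and no test was made on them.

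**Figure D5:**
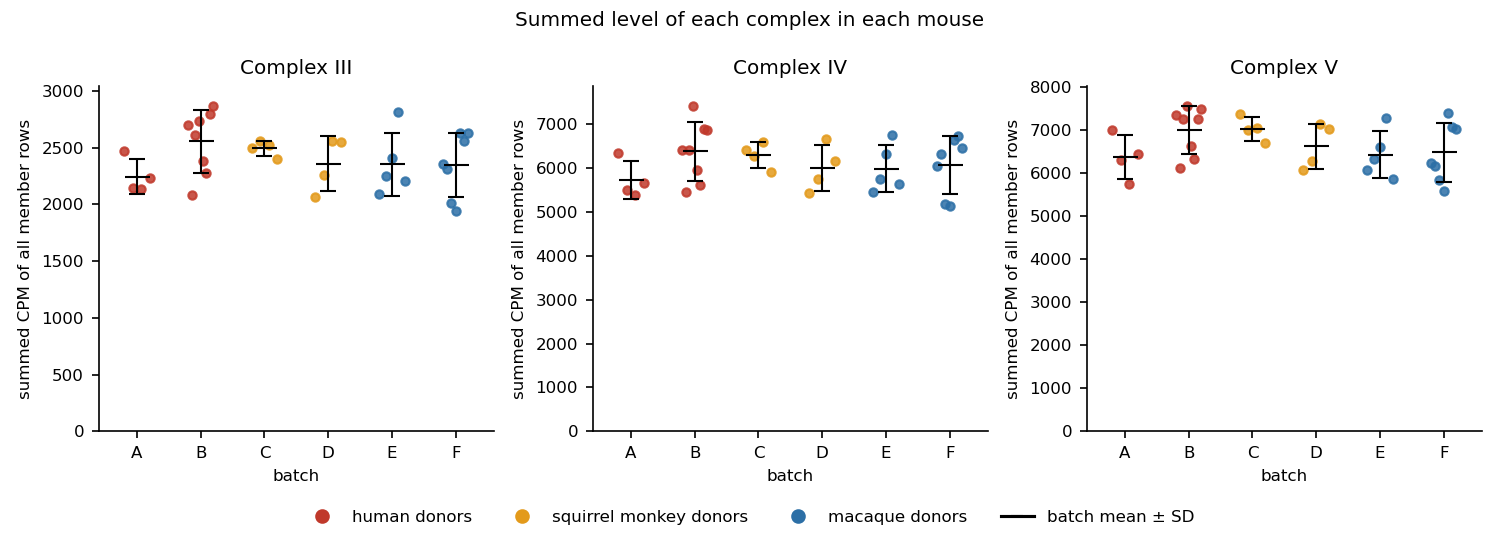
Summed CPM of all member rows of complexes III, IV and V in each of the 32 mice, by batch, with batch means and SD in black. Batch A lies below batch B in all 3 complexes (means of 2244 against 2556, 5726 against 6380 and 6380 against 7005 CPM), and the donor groups overlap.

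Genes of the rest of the pathway were counted from fixed lists in the human comparison, where 4.47% of all genes were called higher and 3.54% lower. Of 36 tested nuclear complex I genes, 4 were higher and 0 lower: Ndufb4 (57.3 ± 15.7 against 25.6 ± 5.90 CPM, SD, 12 mice each), Ndufs5 (86.6 ± 16.3 against 58.4 ± 9.88), Ndufa7 (184 ± 11.3 against 145 ± 16.9) and Ndufa12 (95.5 ± 12.5 against 67.4 ± 9.79), all accessory subunits. Complex II had 0 of 4 called, and the median over the complex I list was 0.08 on the log2 scale. Among assembly factors, Uqcc1 was the only one of 6 for complex III (0.40 ± 0.09, SE; edgeR adjusted p = 0.00585), and Cox17, a copper chaperone, was the only one of 20 for complex IV (0.30 ± 0.09; adjusted p = 0.021). The share called for complex IV assembly was near that of all genes. For complex V this was 0 of 7, for 12 regulators of mitochondrial biogenesis 0, and for 10 genes of cristae and fission 0. Cytochrome c (Cycs) was not called, and genes of mitochondrial DNA were not analysed here.

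Cytosolic ribosomal protein genes, another group of short, abundant transcripts, were counted in the same mice. Of 80 tested, 42 were higher and 0 lower in human-donor against macaque-donor mice, with a median log2 fold change of 0.23, and 22 were higher and 0 lower in squirrel-monkey-donor against macaque-donor mice. Among all genes, 4.47% were called higher in the first comparison and 0.387% in the second. The 3 of smallest p were Rpl28 (1.20 ± 0.12, log2 with SE), Rplp1 (0.58 ± 0.06) and Rps27a (1.21 ± 0.13), each with an edgeR adjusted p of 4.91e-08. The part of transcript length or copies in these calls was not tested.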

How the data were processed

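The authors deposited raw counts per Ensembl gene for TagSeq libraries read as single reads, and these whole-number counts were used as deposited; the build is GRCm39 per the submitters' processing notes, while aligner, counter, annotation and strand setting are not stated in those sources. The table held 3 columns that match no sample, which were not used. Rows without a symbol (76) held 0.031% of counts. Over 160 same-donor pairs of mice, 0 held identical counts.

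Counts were filtered with filterByExpr (minimum count 10, minimum total 15), scaled by TMM (factors 0.955 to 1.04) and fitted with edgeR 4.0.16 in R 4.3.3 on donor group over 32 mice; adjusted p-values are Benjamini-Hochberg over 12651 genes, with a threshold of 0.05. P-values measure the spread between mice, whose batches are nested in donor species. Alternatives used DESeq2 1.42.0 and limma 3.58.1 voom, other scalings, filters, covariates, and left-out batches or mice. On simulated counts for human against macaque over 12651 genes, 23.9% of 1.25-fold, 70.1% of 1.5-fold and 95.5% of 2-fold changes were recovered, with 10 false calls. The simulated mice had no batch differences, and the changed genes were drawn from all tested genes. These shares are thus not those of the members or of batches nested in donor species. Copies were found with blastn 2.17.0 in GENCODE M21.

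The members, lists and rules were chosen with earlier results of these data known. Named were members past the threshold in any comparison, paired isoforms, catalytic subunits, the highest and lowest member of each complex, and up to 3 genes of each list; Ndufa12, Pvalb and the members named between batches or for wide intervals were added after their values were seen.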

Additional observations from a re-analysis of the deposited data

Results flagged for a closer look

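The 7 called members and the 3 complex sums were looked at in each batch and in the whole squirrel monkey group, 70 groups in all. Of these, 3 held a mouse far from the others by Dixon's ratio at the 95% level, which chance gives in about 1 in 20 groups. Atp5g1 was at 139.5 CPM in squirrel monkey replicate 6 of batch D, where the other 3 mice had 159.2 to 162.6 CPM. Cox6a2 was at 17.23 CPM in human replicate 6 of batch B, where the other 7 had 4.249 to 10.16 CPM. Cox6a2 was also at 11.42 CPM in macaque replicate 10 of batch F, where the other 6 had 2.567 to 5.71 CPM. Without macaque replicate 10, Cox6a2 was called higher in human-donor than in macaque-donor mice (0.76 on the log2 scale).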

How the results depend on the processing

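No called member reversed its direction under any alternative. That says nothing of the sign of the complex medians, which lay near 0 in the main fit. Without batch B the human side rested on batch A alone. Its mean sums of 2244, 5726 and 6380 CPM for complexes III, IV and V lay below the macaque-donor 2349, 6036 and 6466 CPM. Members called in human against macaque were 6, falling to 3 with counts summed per batch and 3 without batch F; they were 4 with the library total or the myelin level as a covariate and 8 with library totals alone, and 4 to 9 when each mouse was left out in turn. These totals hold lower calls in 2 settings: Uqcrc2 and Uqcr11 among the 6 without batch B (-0.39 and -0.31), and Uqcrc2 among the 7 without human replicate 11. In squirrel monkey against macaque the single call became 4 with DESeq2 and with limma voom, 3 with library totals, batch levels or only the 2 groups, 2 with DESeq2 size factors, a minimum count of 30, the library total as a covariate, counts summed per batch or without batch D, and 0 with the myelin level as a covariate or without batch C, E or F; leaving out each mouse gave 1 to 3. Human against squirrel monkey gave 1 call, Atp5g2, without batch C. The cause was not tested. Low counts limit Cox6a2, Atp5g2 and Cox7a1 most. Intervals were given for log2 fold changes only, and they include the spread between mice. Shares and counts were given as ranges, sums or SD between mice, without intervals. No paired analysis was possible because replicate numbers were given in accession order and carry no pairing.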
